A study of Mus musculus with 8 samples.

Results

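The transcription factor ATF4 and the genes of the amino acid stress response were followed in RAW264.7 cells, a mouse macrophage-like cell line, after treatment with a recombinant form of the secreted glycoprotein FSTL1 (rFSTL1). The 36 genes were chosen by symbol among the 22013 genes of the count table, and cover enzymes of serine, one-carbon and other amino acid metabolism, amino acid transporters, and regulators and effectors of the stress response. The rule that names them uses gene symbols alone. The members, the related lists and the rule were nevertheless chosen with earlier results of these data known. Counts of members set beside all genes are therefore descriptions, not independent tests. Cells received rFSTL1 at 100 ng/mL for 24 h or PBS, and 4 poly(A)-selected libraries were sequenced per treatment on an Illumina NovaSeq. The libraries were labelled CT1 to CT4 (PBS) and M1 to M4 (rFSTL1), here replicates 1 to 4 of each treatment. No other allele or agent was named in the labels, and all libraries came from the same cell line. The sources used here do not state whether replicates were separate cultures, so the p-values measure only the spread between these libraries, which may be technical. Each library held 15183118 to 20234477 counts under PBS and 15062023 to 19260960 under rFSTL1, of which the 36 genes took 0.3737% to 0.4077%.

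The labelled cell type was checked against 10 macrophage markers. Levels are given as CPM, the count per 1000000 counts of the scaled library total. Of the markers, 9 passed the filter on low counts, with Csf1r, Cd68, Lyz2 and Cd14 at high counts, while Adgre1 (F4/80) was at 3.43 ± 0.479 CPM (SD, n = 4) under PBS and Mertk had 2 counts in 1 library and 0 in the others. None of 15 markers of other cell types passed the filter, and the highest count among them in any library was 13, for Alb in rFSTL1 replicate 2. The only counts of Krt18 (4), Ttr (2) and Krt8 (1) were in that same library. The rFSTL1 libraries were less alike than the PBS libraries. Between pairs of PBS libraries the chi-square per degree of freedom was 3.03 to 4.21, and between pairs of rFSTL1 libraries it was 4.52 to 19.1, largest between replicates 2 and 4. In bulk RNA, fewer cells that express a gene and less of its RNA per cell cannot be told apart.

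ATF4 is the main transcription factor of the integrated stress response. Kinases that sense amino acid shortage (GCN2, encoded by Eif2ak4) or unfolded protein in the endoplasmic reticulum (PERK, encoded by Eif2ak3) phosphorylate the translation factor eIF2α, which lowers protein synthesis in general but favours translation of the Atf4 mRNA. ATF4 then binds C/EBP-ATF response elements, usually with a C/EBP partner, and raises transcription of genes for amino acid synthesis, amino acid uptake and stress adaptation. In macrophages the same enzymes and transporters supply serine, glycine, one-carbon units and cystine for growth and for glutathione. Since ATF4 is controlled largely at translation, its mRNA level is not a measure of the protein, which was not measured in these libraries.

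No member passed the test across all genes. Of the 36 genes, 34 passed the filter on low counts and were compared between treatments with edgeR's quasi-likelihood test, and 0 of them had a Benjamini-Hochberg adjusted p under 0.05, against 37 of all 10748 genes tested (0.344%). The lowest adjusted p-values by edgeR were 0.0542 for Stc2 and 0.0673 for Eif4ebp1. DESeq2 called these 2 genes of the 31 members to which it gave an adjusted p, and 2.12% of the 9289 genes to which it gave one. Limma voom with sample quality weights called 5 members, Stc2, Eif4ebp1, Cebpb and Ppp1r15a (higher under rFSTL1) and Slc7a11 (lower), and 4.22% of all genes. At an unadjusted p under 0.05 by edgeR there were 14 members higher under rFSTL1, where 8.29% of all genes met that criterion, and 2 members lower, where 7.56% of all genes did. The 14 became 6 without PBS replicate 4 (5.51% of all genes) and 9 without rFSTL1 replicate 4 (6.77% of all genes), and it stood between 10 and 15 when any other library was left out, where 5.84% to 9.62% of all genes met the criterion. PBS replicate 4 had the lowest CPM of the 8 libraries in 16 of the 34 members, a count that was not made over all genes.

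For 8 members, all 4 libraries under rFSTL1 lay above all 4 under PBS, and 4.63% of all genes had that order. These were Atf4, Atf5, Ppp1r15a, Stc2, Eif4ebp1, Herpud1, Mthfd2 and Aldh18a1. For each of the 8 the exact two-sided permutation p was 0.0286, the smallest that 4 against 4 libraries allow, and 0.35 once adjusted over all genes tested. The 0.0286 follows from the order by which the 8 were picked, so it adds no separate support. No member had the opposite order, which 3.53% of all genes had. Leaving out any 1 library left between 8 and 14 members with all rFSTL1 libraries above all PBS libraries, an order that 5.61% to 8.49% of all genes then had, and 14 was reached without rFSTL1 replicate 2 (8.49% of all genes). The opposite order then held for 2 members without rFSTL1 replicate 2 (6.79% of all genes) or PBS replicate 1 (6.8%), for 1 without rFSTL1 replicate 3 (4.32%) or 4 (4.72%), and for 0 in the other cases. The log2 fold change (rFSTL1 against PBS) was positive in 26 of the 34 members, 76.5% beside 52% of all genes tested. Its median was 0.10 over the members and 0.0058 over all genes, and the members ranged from -0.21 (Slc7a11) to 0.47 (Chac1). The 95% interval lay inside ±0.5 on the log2 scale for 26 of the 34 members and for 9240 of all 10748 genes tested. By role, the median log2 fold change was 0.29 over 6 stress effectors, 0.23 over 7 transcription regulators, 0.14 over 3 genes of the eIF2α kinases and phosphatase, 0.051 over 6 serine and one-carbon enzymes, 0.038 over 5 other amino acid enzymes and 0.035 over 7 transporters.

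**Figure D1:**
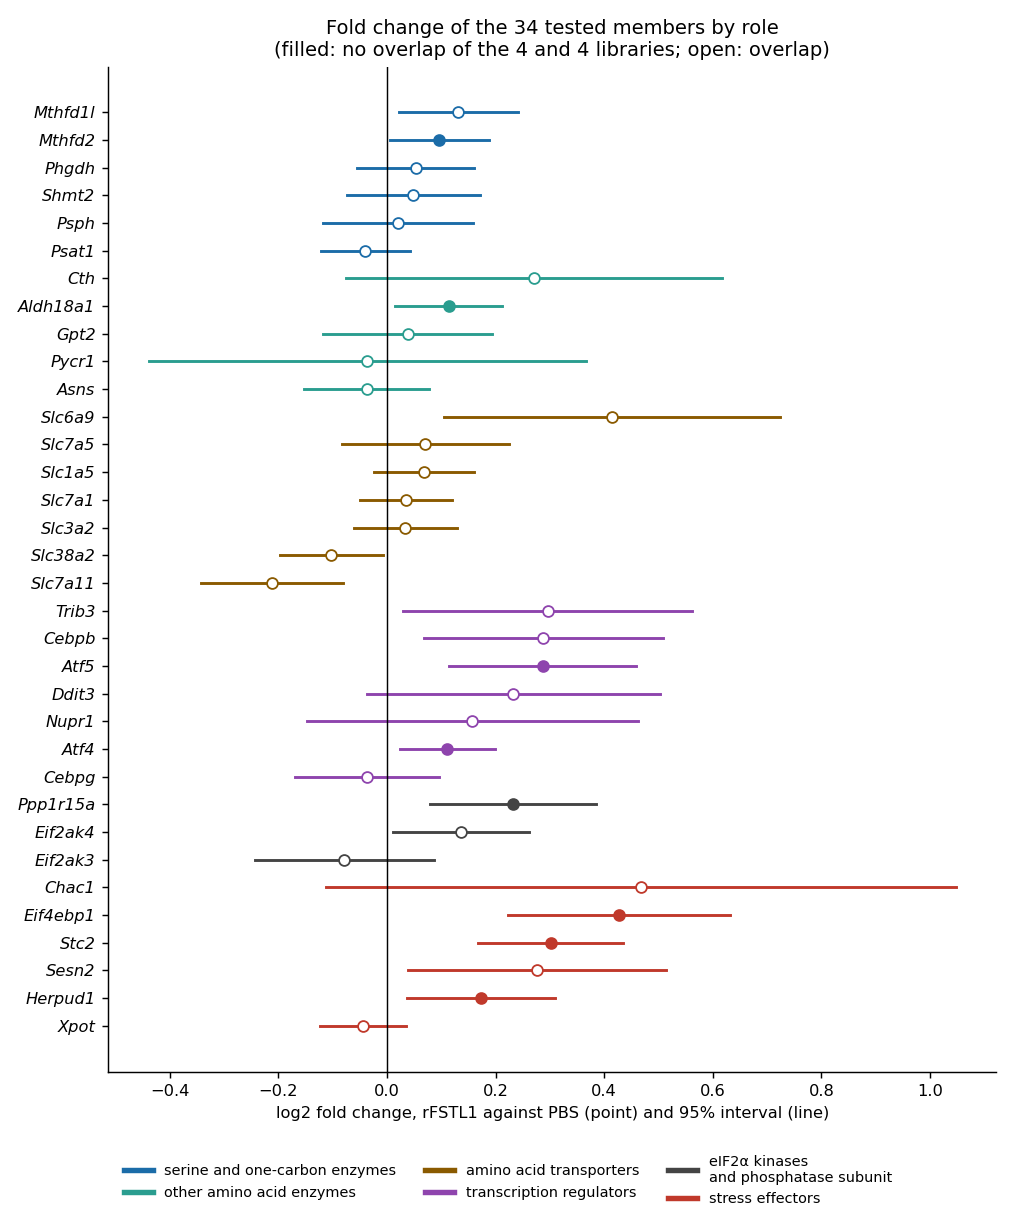
Log2 fold change under rFSTL1 against PBS (x axis) for the 34 members that passed the filter on low counts, grouped and coloured by role, with 95% intervals from edgeR as lines. Filled points mark the 8 members whose libraries did not overlap between treatments, all of them to the right of 0, and the leftmost point is Slc7a11 at -0.21.

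The letters of the C/EBP-ATF response element were looked for in the promoters of the members, since such elements are the sites through which ATF4 acts. The RefSeq promoter table (GRCm38.p6, from 250 bases before the start of a gene to 50 bases after it) held 32 of the 36 members. Cth, Slc7a5, Slc1a5 and Eif4ebp1 had no entry. The letters TTGCATCA or their reverse complement TGATGCAA were present in 6 of the 32 (18.8%) and in 279 of the 27025 genes in the table (1.03%), counting a gene once where any of its promoters held them. The members were listed for their link to ATF4 and amino acid stress, so their share is not independent of that choice. The members were Pycr1, Slc7a11, Nupr1, Chac1, Herpud1 and Vldlr, of which Vldlr was not tested for expression. The stretches around the matches in the 5 tested genes are shown because their expression can be set beside them, read 5′ to 3′ on the strand of the gene with the matched letters in capitals.
Slc7a11, chr3:50443631-50443701, - strand: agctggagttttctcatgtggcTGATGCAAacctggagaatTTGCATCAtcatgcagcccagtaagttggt
Chac1, chr2:119351027-119351078, + strand: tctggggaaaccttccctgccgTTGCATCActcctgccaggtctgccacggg
Herpud1, chr8:94386295-94386346, + strand: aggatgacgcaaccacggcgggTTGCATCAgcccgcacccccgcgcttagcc
Nupr1, chr7:126625551-126625602, - strand: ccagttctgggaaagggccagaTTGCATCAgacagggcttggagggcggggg
Pycr1, chr11:120643822-120643873, - strand: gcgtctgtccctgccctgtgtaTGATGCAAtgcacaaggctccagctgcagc
Slc7a11 held the element in both orientations, 66 and 47 bases before its start. The single matches began 193 bases before the start of Chac1, 112 before that of Herpud1, 110 before that of Nupr1 and 103 before that of Pycr1. The looser letters TGATGNAA (reverse complement TTNCATCA, which contain the stricter letters) were found in 8 of the 32 (25%) and in 4.51% of all genes in the table, and added Asns (TGATGAAA, 23 bases before the start) and Trib3 (TTACATCA, 14 bases after it). The 5 tested members with the stricter letters ran from the lowest to the highest log2 fold change of all members, Slc7a11 at -0.21 and Chac1 at 0.47, and 3 of the 5 were positive with a median of 0.16. Of the 25 tested members whose promoter lacked them, 19 were positive, with a median of 0.10. A match in these letters is a description of the sequence, not of binding.

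Expressed per kilobase of the longest transcript in GENCODE M21, so that genes can be ranked, the levels under PBS spread widely. The serine synthesis enzyme Phgdh was highest at 182 CPM per kb, followed by Shmt2 at 158, Atf4 at 156 and Psat1 at 147 CPM per kb. The ranges of the 4 PBS libraries did not overlap between Phgdh and Shmt2, while those of Shmt2 and Atf4, and of Atf4 and Psat1, did. Among transporters Slc1a5 stood first at 91.9 CPM per kb. The glutathione-degrading enzyme Chac1 was the lowest of the tested members at 0.708 CPM per kb. Cbs and Vldlr had at most 2 counts in any library, with sums of 6 and 4 counts over the PBS libraries and 2 and 1 over the rFSTL1 libraries, and no fold change is given for them.

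**Figure D2:**
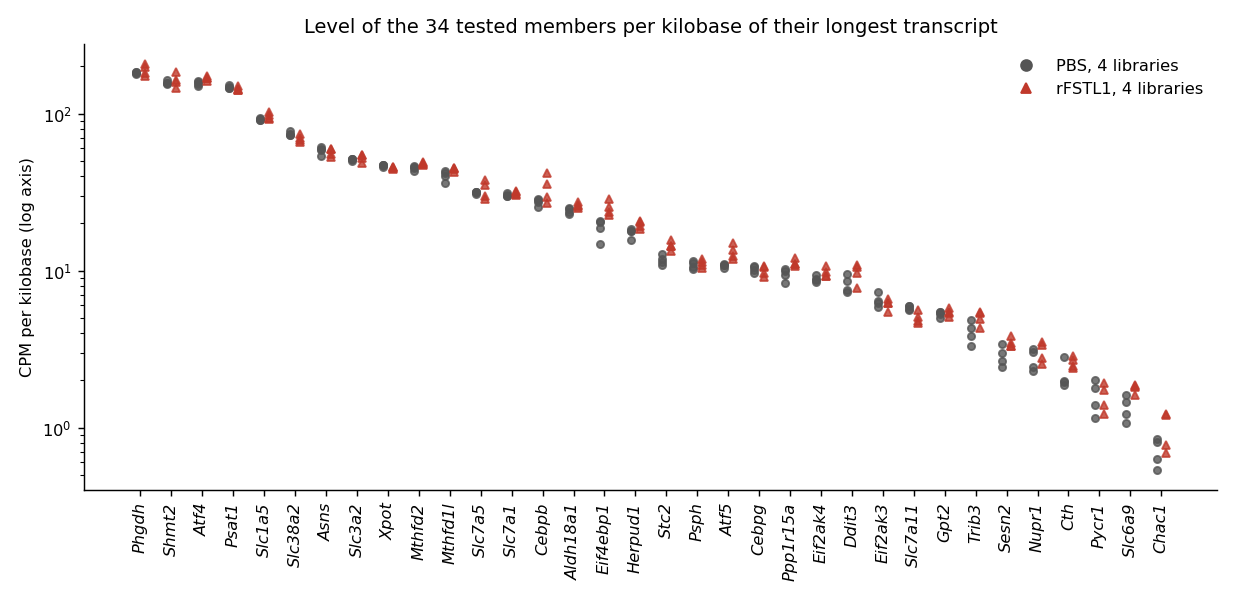
Level of each tested member in CPM per kilobase of the longest transcript (log axis), with 1 point per library, grey circles for PBS and red triangles for rFSTL1. Phgdh, Shmt2, Atf4 and Psat1 lie at the top and Chac1 at the bottom, and the points of neighbouring genes often overlap.

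The serine and one-carbon enzymes, among which were 3 of the 4 most abundant members per kilobase, had log2 fold changes from -0.040 to 0.13. Phgdh, which catalyses the first step of serine synthesis from the glycolytic intermediate 3-phosphoglycerate, had 345, 346, 349.9 and 340.2 CPM in the PBS replicates 1 to 4 and 343, 327, 373 and 389.9 CPM in the rFSTL1 replicates. Its rFSTL1 libraries lay on both sides of the PBS libraries, replicate 1 within their range, replicate 2 below it and replicates 3 and 4 above it, and the log2 fold change was 0.053 (95% interval -0.055 to 0.16) and 0.0097 without rFSTL1 replicate 4. Psat1, the aminotransferase of the next step, had 397, 382, 384 and 379.8 CPM under PBS and 374, 370.4, 389.6 and 368 CPM under rFSTL1, with a log2 fold change of -0.040 (-0.12 to 0.042). Psph, the phosphatase that releases serine, ranged from 29.4 to 33.2 CPM under PBS and from 29.7 to 34 CPM under rFSTL1. Its deposited counts were not whole in any of the 8 libraries, so reads shared with other genes may have been split.

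Shmt2 passes a carbon from serine to folate in mitochondria and gives glycine. It had 358, 357, 375 and 354 CPM under PBS and 364, 333, 376 and 421 CPM under rFSTL1, with rFSTL1 replicate 4 again the highest and replicate 2 the lowest of the 8, and a log2 fold change of 0.049 (-0.074 to 0.17) that was -0.014 without rFSTL1 replicate 4. Mthfd2, the mitochondrial dehydrogenase of the same folate cycle, had 94.4, 95.4, 96.4 and 89.2 CPM under PBS and 103, 99.9, 101 and 98.2 CPM under rFSTL1. Its groups did not overlap, although the gap between them was narrow, and the log2 fold change was 0.10 (standard error, SE, 0.043, adjusted p = 0.289 by edgeR). For Mthfd1l, which releases formate from mitochondrial folate, the PBS values were 159.6, 148, 153 and 134 CPM and the rFSTL1 values 167, 155, 165 and 164 CPM. Those ranges overlapped, and the log2 fold change of 0.13 (adjusted p = 0.245 by edgeR) was 0.080 without PBS replicate 4. None of the 6 enzymes had an adjusted p under 0.05.

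Among the other amino acid enzymes, Asns (asparagine synthetase), one of the best known ATF4 targets, was at 124, 120.3, 119 and 108 CPM under PBS and 121, 106, 112 and 120.2 CPM under rFSTL1. The groups overlapped and the log2 fold change was -0.037 (95% interval -0.15 to 0.077). Aldh18a1, which starts proline synthesis from glutamate, had 87.8, 81, 86.8 and 83 CPM under PBS and 90.3, 87.9, 92.2 and 95.9 CPM under rFSTL1. All rFSTL1 libraries were above all PBS libraries, though PBS replicate 1 and rFSTL1 replicate 2 nearly met, with a log2 fold change of 0.11 (SE 0.047, adjusted p = 0.257 by edgeR). Pycr1, which completes proline synthesis, was low at 4.63 ± 1.13 CPM (SD, n = 4) under PBS and 4.57 ± 0.923 CPM under rFSTL1, and its 95% interval for the log2 fold change ran from -0.44 to 0.37. Gpt2, the mitochondrial alanine aminotransferase, had a log2 fold change of 0.038 (-0.12 to 0.19). Cth, which releases cysteine in the transsulfuration pathway, had 3.91 ± 0.82 CPM under PBS and 4.74 ± 0.38 CPM under rFSTL1, with a log2 fold change of 0.27 (-0.075 to 0.62), and Cbs, the enzyme of the preceding step, was among the genes with at most 2 counts.

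The transporters did not share a direction. Slc7a11 (ENSMUSG00000027737) is the light chain of the cystine/glutamate exchanger xCT, which brings in cystine for glutathione. It had 51.4, 55.2, 52.8 and 55.1 CPM in the PBS libraries and 47, 51.5, 44.1 and 42.8 CPM in the rFSTL1 libraries. Only rFSTL1 replicate 2 reached into the PBS range, by lying above PBS replicate 1, and the log2 fold change was -0.21 (SE 0.062, adjusted p = 0.142 by edgeR, exact two-sided permutation p = 0.0571). Limma voom called it with an adjusted p of 0.0261, and edgeR did so when rFSTL1 replicate 2 was left out (log2 fold change -0.27, adjusted p = 0.038). Its deposited counts were not whole in any of the 8 libraries, as for Psph. Slc3a2, the heavy chain that Slc7a11 and Slc7a5 both need, had 144, 145, 145 and 141 CPM under PBS and 146, 137, 153 and 153 CPM under rFSTL1, with a log2 fold change of 0.034 (-0.061 to 0.13). Slc7a5, the leucine transporter LAT1, had 111, 107, 112 and 111 CPM under PBS, a narrow range. Its rFSTL1 values of 100.1, 105, 124 and 134 CPM lay on both sides of it, replicates 1 and 2 below and 3 and 4 above, for a log2 fold change of 0.071 that was -0.0049 without rFSTL1 replicate 4.

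Slc38a2, the SNAT2 carrier of small neutral amino acids, had 449, 448, 451 and 476 CPM under PBS and 428, 455, 414 and 402 CPM under rFSTL1. The groups overlapped, and the log2 fold change was -0.10 (SE 0.045, adjusted p = 0.286 by edgeR). The glycine transporter Slc6a9 was much less abundant, at 5.10, 4.26, 3.75 and 5.65 CPM under PBS and 6.28, 5.60, 6.54 and 6.36 CPM under rFSTL1. Its log2 fold change was 0.41 (SE 0.15, adjusted p = 0.207 by edgeR), and the groups overlapped. Slc1a5 (the glutamine carrier ASCT2) and Slc7a1 (the cationic amino acid carrier CAT1) had log2 fold changes of 0.069 (-0.023 to 0.16) and 0.035 (-0.049 to 0.12). Of the 7 transporters, 3 had an unadjusted p under 0.05, 1 higher (Slc6a9) and 2 lower (Slc7a11 and Slc38a2), beside 8.29% higher and 7.56% lower of all genes tested.

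Of the 7 transcription regulators, 4 were higher at an unadjusted p under 0.05 (Atf4, Atf5, Cebpb and Trib3) and 0 were lower, where 8.29% and 7.56% of all genes were. Atf4 itself (ENSMUSG00000042406) had 325, 313, 321 and 301 CPM under PBS and 327, 351, 340.0 and 342 CPM under rFSTL1. The groups did not overlap, but the lowest rFSTL1 library and the highest PBS library nearly met, and the log2 fold change was 0.11 (SE 0.041, adjusted p = 0.225 by edgeR). Atf5, a related factor whose mRNA is also translated preferentially under stress, had 19.7, 19.8, 20.1 and 18.9 CPM under PBS and 21.4, 27.3, 22.6 and 24.5 CPM under rFSTL1. Here the 4 PBS libraries lay close together and every rFSTL1 library above them, with a log2 fold change of 0.29 (SE 0.081, adjusted p = 0.137 by edgeR). Cebpb, a C/EBP factor that can pair with ATF4 and is also known for its part in macrophage activation, had 41.1, 42.5, 43.3 and 38.4 CPM under PBS and 44.1, 40.8, 53.6 and 62.8 CPM under rFSTL1. Its rFSTL1 replicates 3 and 4 were well above every PBS library, replicate 1 was just above them and replicate 2 lay within their range. The log2 fold change was 0.29 (adjusted p = 0.212 by edgeR and 0.0469 by limma voom), and it was 0.16 without rFSTL1 replicate 4.

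Ddit3 encodes CHOP, a C/EBP-family factor induced by ATF4. It had 7.29, 9.19, 8.34 and 7.10 CPM under PBS and 10.6, 7.51, 10.2 and 9.34 CPM under rFSTL1, overlapping ranges with a log2 fold change of 0.23 (-0.037 to 0.50). A second identifier with the symbol Ddit3 held only 1.97 counts in all and was not used. Trib3, a pseudokinase that is induced by ATF4 and limits it, had 8.68, 7.75, 9.77 and 6.70 CPM under PBS and 9.95, 8.68, 10.9 and 11 CPM under rFSTL1, overlapping ranges with a log2 fold change of 0.30 (SE 0.13, adjusted p = 0.268 by edgeR). Nupr1, a small stress-induced chromatin protein, and Cebpg, a frequent partner of ATF4, had log2 fold changes of 0.16 (-0.15 to 0.46) and -0.036 (-0.17 to 0.10).

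**Figure D3:**
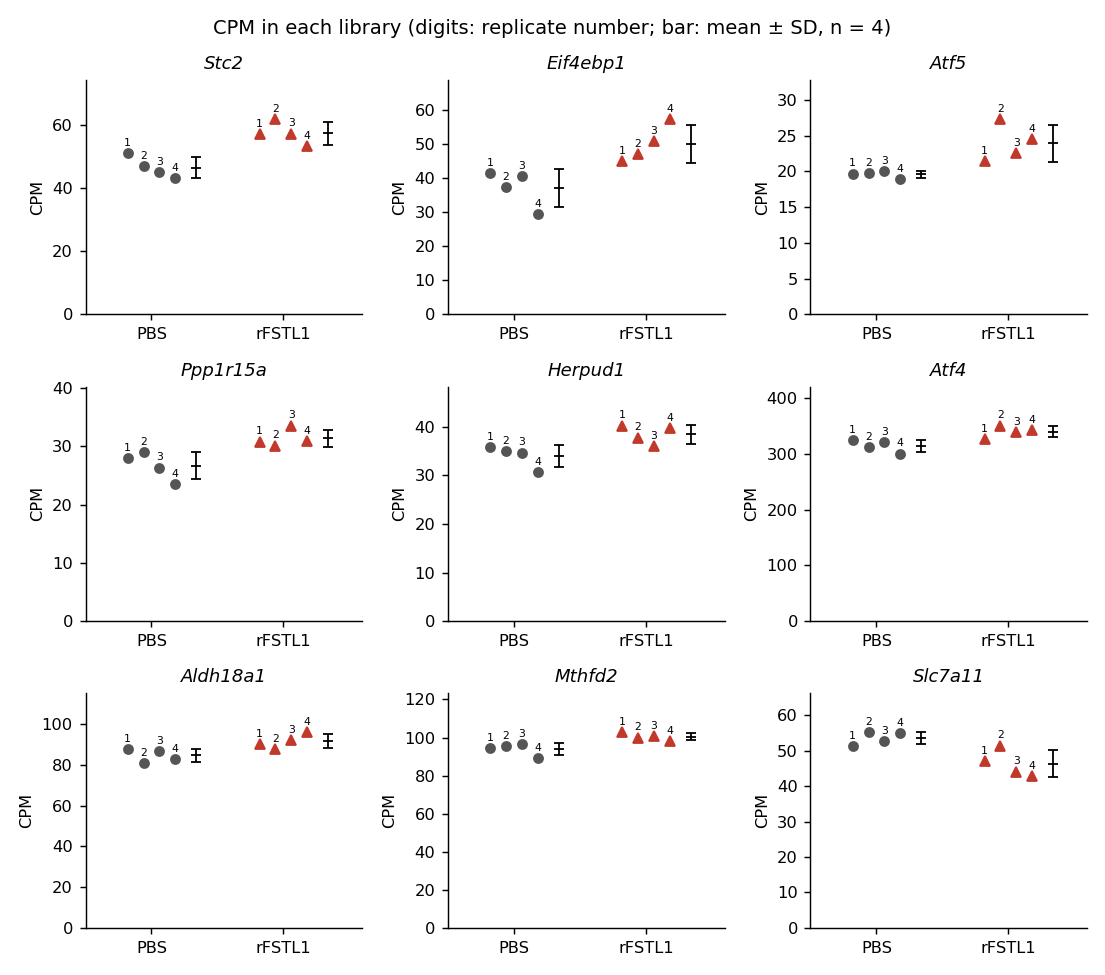
CPM in each of the 8 libraries (linear axes from 0) for the 8 members whose groups did not overlap and for Slc7a11, with 1 point per library, its replicate number, and the mean and SD of each treatment as a bar. In the 8 members every rFSTL1 point lies above every PBS point, with the groups nearly touching in Atf4, Aldh18a1 and Herpud1, and Slc7a11 shows 3 of 4 rFSTL1 points below the PBS range.

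Of the genes that set eIF2α phosphorylation, Ppp1r15a (GADD34), the subunit that directs phosphatase to eIF2α and so ends the response, had 27.9, 28.9, 26.3 and 23.5 CPM under PBS and 30.8, 30.1, 33.5 and 30.9 CPM under rFSTL1. Its groups did not overlap, and the log2 fold change was 0.23 (SE 0.072, adjusted p = 0.167 by edgeR and 0.0422 by limma voom). Eif2ak4 (GCN2) had 46.6, 46.4, 49.8 and 44.9 CPM under PBS and 51.6, 49.2, 49.2 and 56.3 CPM under rFSTL1, with a log2 fold change of 0.14 (adjusted p = 0.28 by edgeR) and overlapping groups, and 0.089 without rFSTL1 replicate 4. Eif2ak3 (PERK) had 28.1, 26.6, 32.8 and 29 CPM under PBS and 27.9, 24.7, 29.6 and 28.2 CPM under rFSTL1. The ranges overlapped and the log2 fold change was -0.078 (-0.24 to 0.086).

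The 2 lowest p-values of all members belonged to stress effectors. Stc2 (ENSMUSG00000020303), a secreted glycoprotein induced in the unfolded protein and amino acid responses, had 51.1, 46.9, 45.2 and 43.2 CPM in the PBS libraries and 57.1, 62.1, 57.4 and 53.3 CPM in the rFSTL1 libraries. The groups did not overlap, with means of 46.6 ± 3.35 and 57.5 ± 3.58 CPM (SD, n = 4) and a log2 fold change of 0.30 (SE 0.063, 95% interval 0.17 to 0.43). Its adjusted p was 0.0542 by edgeR and 0.00479 by DESeq2. Eif4ebp1 (ENSMUSG00000031490), which holds back cap-dependent translation by binding eIF4E, had 41.5, 37.3, 40.6 and 29.4 CPM under PBS and 45, 47, 50.8 and 57.4 CPM under rFSTL1. PBS replicate 4 was the lowest library and rFSTL1 replicate 4 the highest, and every rFSTL1 library was above every PBS library. The log2 fold change was 0.43 (95% interval 0.22 to 0.63), with an adjusted p of 0.0673 by edgeR and 0.00507 by DESeq2, and it was 0.33 without PBS replicate 4 and 0.35 without rFSTL1 replicate 4. By edgeR, Stc2 passed the threshold when PBS replicate 1 (adjusted p = 0.0494) or rFSTL1 replicate 4 (0.0183) was left out. Eif4ebp1 passed by edgeR without rFSTL1 replicate 1 (adjusted p = 0.0468) or rFSTL1 replicate 2 (0.0389).

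Herpud1, a membrane protein of endoplasmic reticulum-associated degradation, had 35.8, 34.9, 34.7 and 30.6 CPM under PBS and 40.2, 37.7, 36 and 39.7 CPM under rFSTL1. Its groups did not overlap either, though PBS replicate 1 and rFSTL1 replicate 3 nearly met, with a log2 fold change of 0.17 (SE 0.064, adjusted p = 0.221 by edgeR). Sesn2, a leucine sensor that restrains the growth kinase complex mTORC1, had 8.44, 9.19, 11.8 and 10.4 CPM under PBS and 11.4, 12, 11.6 and 13.3 CPM under rFSTL1, overlapping, with a log2 fold change of 0.28 (adjusted p = 0.252 by edgeR). Chac1, which breaks down glutathione, had 1.34, 0.886, 1.04 and 1.38 CPM under PBS and 1.27, 1.97, 1.99 and 1.13 CPM under rFSTL1. Its log2 fold change of 0.47 was the highest of the members but rested on few counts. Its 95% interval ran from -0.11 to 1.05, and leaving out 1 library gave 0.33 to 0.61. Xpot, which exports tRNA from the nucleus, had a log2 fold change of -0.044 (-0.12 to 0.035), and the lipoprotein receptor Vldlr was not tested.

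To see where each library stood, each gene's log2(CPM + 1) was set relative to its mean over the PBS libraries. The median over the 34 members was 0.010, -0.0070, 0.032 and -0.039 in PBS replicates 1 to 4. In the rFSTL1 replicates it was 0.093, 0.048, 0.11 and 0.17. All 4 rFSTL1 libraries therefore stood above all 4 PBS libraries in this median, with replicate 2 nearest to them and replicate 4 farthest. Over all genes tested, the same quantity lay between -0.0061 and 0.014. By role, the stress effectors had the widest gap between treatments of the 6 roles, from 0.21 to 0.30 in the rFSTL1 libraries and from -0.045 to 0.097 in the PBS libraries. The transcription regulators ranged from 0.043 (replicate 2) to 0.31 (replicate 4) under rFSTL1 and from -0.065 to 0.033 under PBS. For the other 4 roles the ranges of the treatments overlapped. They were -0.012 to 0.089 under rFSTL1 and -0.024 to 0.0059 under PBS for the transporters, and -0.0010 to 0.10 and -0.050 to 0.029 for the serine and one-carbon enzymes. For the other amino acid enzymes they were 0.031 to 0.12 and -0.082 to 0.042, and for the eIF2α kinases and phosphatase 0.068 to 0.21 and -0.061 to 0.085. PBS replicate 3 held 25 of the 34 members above their PBS mean and PBS replicate 4 held 10, while the rFSTL1 libraries held 26, 19, 27 and 25. Of all 10748 genes tested, PBS replicates 3 and 4 held 5446 and 5306 above the PBS mean. The rFSTL1 libraries held 5301, 5135, 5665 and 5658 of them. The spread between libraries was larger under rFSTL1 in 19 of the 34 members (55.9%), against 65.6% of all genes. Replicate 4 of rFSTL1 was the highest of the 8 libraries in 12 members, also without a count over all genes. Whether this is a trait of the members or of the whole library was not tested, nor was what sets it and PBS replicate 4 apart.

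**Figure D4:**
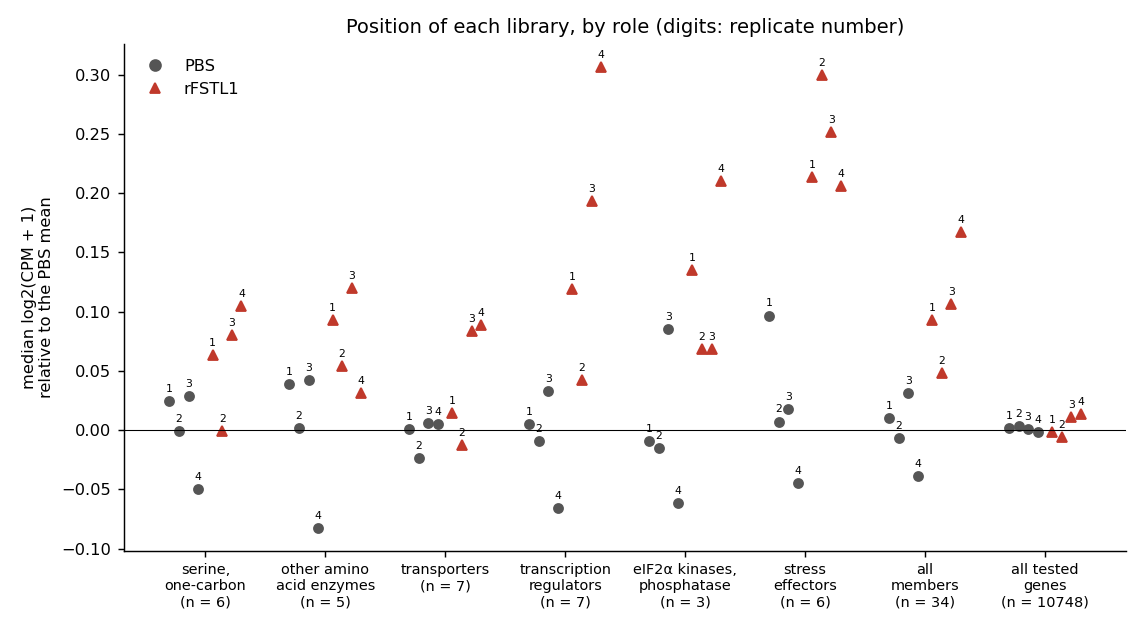
Median over genes of log2(CPM + 1) relative to the mean of the PBS libraries, for each of the 8 libraries (points, with replicate numbers), over the members of each role, over all 34 members and over all 10748 genes tested. For all members the 4 rFSTL1 libraries lie between 0.048 and 0.17 and the PBS libraries between -0.039 and 0.032, while the values over all genes stay near 0.

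Other genes of the same pathways were described from lists of related genes, 135 of which were tested in all. By edgeR, 0 of the 135 had an adjusted p under 0.05, and at an unadjusted p under 0.05 there were 15 higher and 11 lower (8.29% and 7.56% of all genes), with a median log2 fold change of 0.023. These percentages are also the background for the unadjusted counts of each list that follows. DESeq2 called 5 of the 123 to which it gave an adjusted p (4 higher, 1 lower), beside 2.12% of the 9289 genes to which it gave one. Limma voom called 7 of the 135 (5 higher, 2 lower), beside 4.22% of all genes. Of 20 aminoacyl-tRNA synthetases, which charge tRNA with amino acids and include known ATF4 targets, 1 was higher at an unadjusted p under 0.05 (Sars1, log2 fold change 0.11, adjusted p = 0.227 by edgeR, groups not overlapping) and 1 lower (Farsb, -0.094), and the median was -0.0013. Of 21 tested genes of the folate and methionine cycles, 0 were higher and 3 lower at that level, with a median of -0.047. The lowest p-values there belonged to Mat2a, which makes S-adenosylmethionine (log2 fold change -0.16, adjusted p = 0.0993 by edgeR, groups not overlapping, called lower by DESeq2 and limma voom), and Dld, a dehydrogenase shared with glycine cleavage (-0.17, called lower by limma voom). Of 15 other amino acid transporters, 3 were higher and 2 lower with a median of 0.015. Slc43a2, a carrier of large neutral amino acids, had a log2 fold change of 0.18 (adjusted p = 0.169 by edgeR). The amino acid carrier Slc36a4 had one of -0.12 (adjusted p = 0.234 by edgeR), and the groups did not overlap for either gene.

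Of 23 other genes linked to ATF4, 4 were higher and 1 lower at an unadjusted p under 0.05 (8.29% and 7.56% of all genes), and the median log2 fold change was 0.089. Atf3, a stress-induced transcription factor, had a log2 fold change of 0.27 (adjusted p = 0.0934 by edgeR), and Ero1a, the oxidase that forms disulfide bonds in the endoplasmic reticulum, 0.33 (adjusted p = 0.0993 by edgeR, groups not overlapping). DESeq2 and limma voom called both. Of 27 tested genes of the unfolded protein response, 5 were higher and 0 lower against the same background, with a median of 0.059. Among them Sdf2l1, an endoplasmic reticulum chaperone cofactor, had 49.7, 56.2, 59.3 and 48.8 CPM under PBS and 64.1, 64.5, 66.8 and 66.5 CPM under rFSTL1, every rFSTL1 library above every PBS library, with a log2 fold change of 0.29 and an adjusted p of 0.0585 by edgeR. Syvn1, the ubiquitin ligase of endoplasmic reticulum-associated degradation that works with Herpud1, had 32.2, 28.4, 32.1 and 32.2 CPM under PBS and 38.9, 34.7, 38.9 and 38.7 CPM under rFSTL1, with the same order of libraries, a log2 fold change of 0.28 and an adjusted p of 0.0729 by edgeR. Both were called by DESeq2 and limma voom. Of 29 genes of the eIF2 and stress sensing machinery, 2 were higher and 4 lower, with a median of 0.015, and the lowest p-values were those of Sesn1 (-0.22), a relative of Sesn2, and Lamtor1 (0.20, groups not overlapping, called by limma voom), a subunit of the lysosomal complex that recruits mTORC1.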

How the data were processed

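RNA-seq of 8 RAW264.7 libraries, 4 per treatment, was analysed. Groups and replicate numbers came from the treatment labels and titles. The authors deposited expected counts (estimated counts) of 22013 genes without normalization. The paper names the Omicsmart platform for its analysis of bulk RNA sequencing, without saying where the counts were made. The submitters' processing notes name Bowtie2 2.2.8, HISAT2, StringTie 1.3.1 and DESeq2. The genome build, the counting tool and its use of strand are not given in the sources used here, so reads of overlapping or near-identical genes may be split. Of the nonzero values, 13% were not whole, among members in Psph, Slc7a11, Atf5, Slc6a9 and Ddit3. The design assumed whole counts, so values were rounded and the same count test was used.

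Genes were kept by filterByExpr (minimum count 10), which left 10748, and scaled by TMM. The quasi-likelihood test of edgeR 4.0.16 in R 4.3.3 was used between treatments, with Benjamini-Hochberg adjustment over all genes tested. CPM is TMM-scaled. Single members were also compared by exact two-sided permutation on log2(CPM + 1) over all 70 assignments of the libraries. The code was tested on simulated data. No pair of libraries in a group agreed within sampling noise. Alternatives were DESeq2 1.42.0, limma 3.58.1 voom with sample quality weights, other scalings, count filters and threshold, the replicate number as a block, and leaving out each library. The counts of members by sign, by unadjusted p and by overlap were recomputed without each library after the values were seen.

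Values in all 8 libraries are given for each member with an unadjusted p under 0.05 or with groups that did not overlap, and for Atf4, Ddit3, Atf5, Asns, Psat1, Phgdh, Shmt2, Mthfd2, Chac1, Trib3, Slc7a11, Slc7a5, Slc3a2, Eif2ak3, Eif2ak4 and Ppp1r15a whatever their values. Of each related list, the 2 genes with the lowest p are named. The members, the related lists and the rule were chosen with earlier results of these data known. Levels per kilobase use the longest GENCODE M21 transcript, and promoter letters come from RefSeq (GRCm38.p6). The build of the counts is not stated, and no coordinates of the counts are used.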

Additional observations from a re-analysis of the deposited data

Results flagged for a closer look

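In 68 groups of 4 libraries (34 members in each treatment), the library farthest from the others was compared with the spread of its group by Dixon's criterion, and 2 groups passed it, where chance gives about 3.4. Cth had 5.13 CPM in PBS replicate 3 and 3.38 to 3.61 CPM in the other PBS libraries. Slc38a2 had 476 CPM in PBS replicate 4 and 448 to 451 CPM in the other PBS libraries. Neither gene had an adjusted p under 0.05 by edgeR with all libraries. Without the library in question, the log2 fold change was 0.44 for Cth (adjusted p = 0.307 by edgeR) and -0.086 for Slc38a2 (adjusted p = 0.486 by edgeR).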

How the results depend on the processing

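The median log2 fold change of the members stayed between 0.07 and 0.11 under each other test, scaling, filter, the block and each library left out, and 25 to 27 members were positive without 1 library. The number of members past the threshold was 0 with edgeR and TMM, and 0 also with DESeq2 size factors in edgeR (33 of all genes) and with a stricter count filter (at least 50 counts in 4 libraries, 33 of all genes). It was 2 with DESeq2 and 5 with limma voom. It was 1 with upper-quartile scaling, 1 with library totals alone (38 of all genes), 2 when genes needed a single count, and 2 at a threshold of 0.1 (Stc2 and Eif4ebp1). Leaving out 1 library gave 0 to 2 members. Over all genes, 37 passed with edgeR, 197 with DESeq2, 454 with limma voom, 56 with upper-quartile scaling, 127 when a single count sufficed and 133 at a threshold of 0.1, and leaving out 1 library gave 11 (without PBS replicate 2) to 99 (without rFSTL1 replicate 1). No pairing of libraries by replicate number was seen. The correlations of same-numbered deviations were -0.0904, 0.0847, -0.0127 and 0.000976, and only rFSTL1 replicate 2 of the 8 libraries correlated best with its own number. Such correlations cannot exclude a pairing with little shared effect. With the replicate block, 1 member (Stc2, adjusted p = 0.0379 by edgeR) and 41 genes passed. Of 540 values of single members with an adjusted p under the alternatives (the exact test, which cannot pass once adjusted, left out), 513 kept their sign and their side of the threshold, 17 newly passed it and 10 changed sign. Pycr1, at -0.036 with all libraries by edgeR, was 0.023 by limma voom and -0.16 to 0.10 without 1 library. Between the libraries left out, the log2 fold change was -0.017 to 0.053 for Psph, -0.014 to 0.092 for Shmt2, -0.0049 to 0.13 for Slc7a5 and -0.076 to 0.0099 for Cebpg. It kept its sign but moved by over 1.5 times for Nupr1 (0.077 to 0.24), Slc1a5 (0.037 to 0.084), Slc7a1 (0.018 to 0.050), Slc3a2 (0.014 to 0.061), Gpt2 (0.00021 to 0.059), Asns (-0.081 to -0.0097), Eif2ak3 (-0.12 to -0.014) and Cth (0.20 to 0.44), as it did for Phgdh, Cebpb, Mthfd1l and Eif2ak4. The members with few counts were the least precise, with a standard error of 0.27 for Chac1 and 0.19 for Pycr1 on the log2 scale. Causes of these shifts were not tested.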
